A study of Mus musculus with 24 samples.

Results

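ERV1 repeat subfamilies are the groups of endogenous retrovirus copies that the repeat annotation places in the ERV1 family of the LTR class. Every row of the 24 tables whose name carries that family and class was taken, which gave 149 of the 1146 repeat subfamilies in the tables. A count for a subfamily pools the reads assigned to all of its genomic copies, so it does not say which copies were transcribed.

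ERV1 holds the endogenous relatives of gammaretroviruses such as murine leukaemia virus. A complete provirus has an internal part with the viral genes, flanked on each side by a long terminal repeat (LTR) that acts as promoter and polyadenylation site, and recombination between the LTRs leaves a solo LTR. In embryonic stem cells, proviruses of this kind are kept silent by KRAB zinc finger proteins, which bind the provirus and bring TRIM28 and the histone methyltransferase SETDB1, and by DNA methylation. The transcription factor DUX is best known for switching on another family, the ERVL element MERVL, together with genes of the 2-cell embryo.

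The cells were KH2, a mouse embryonic stem cell line, with a DUX transgene under a promoter that doxycycline (DOX) switches on, and RNA was sequenced without DOX or after 16 h of DOX. One set of 8 libraries held WT and DUXBL-KO, and a second set of 16, all labelled pLV2, held 2 WT lines (line 1 and line 2), TRIM24-KO and TRIM33-KO. What pLV2 stands for, and which WT line belongs to which knockout, is not given in the labels. Each of the 12 groups had 2 libraries and each genotype in a set was 1 line, apart from WT pLV2 with its 2 lines. Nothing in the labels says that the 2 libraries of a group came from separate cultures, so p-values measure the spread between these samples, which may be technical. Cells were grown on gelatin or alternatively on growth-arrested fibroblasts, and the labels do not say which library had which.

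The gene rows of a library summed to 11784696 to 19136869 counts, and repeats took 7.58 to 23.0% of all counts. Dux (Duxf3) had 0 to 2 counts in the 12 libraries whose title lacks DOX and 20 to 110 in the others. The treatment tags of 8 pLV2 libraries disagree with the titles and were not followed. Trim33 had 16.9 to 21.4 CPM (counts scaled to the effective library size of the gene rows) in TRIM33-KO and 85.2 to 139.96 in WT pLV2. Trim24 had 120.3 to 137 CPM in the libraries labelled TRIM24-KO, 94.5 to 100.2 in WT pLV2 line 1 and 165 to 199 in line 2. It was higher than in line 1 alone (log2 difference 0.42 without and 0.32 with DOX), lower than in line 2 alone (-0.47 and -0.61), all past the threshold, and not different past it from the mean of both. Duxbl1 without DOX had 16 and 6 counts in the libraries labelled DUXBL-KO and 24 and 6 in WT. Neither transcript was lowered past the threshold against WT (Duxbl1) or against both WT pLV2 lines averaged (Trim24), so every direction given below for DUXBL-KO and TRIM24-KO rests on the label alone. All 10 embryonic stem cell markers were detected, with a summed level of 4216 to 6080.3 CPM. The 11 fibroblast markers summed to 12.01 to 35.96 CPM, and 2 to 6 of them were at 0 in a given library. CT010467.1 alone made up 30.4% of gene counts (Wilson 95% interval 30.41 to 30.46) in replicate 2 of TRIM24-KO with DOX and 12.9% (12.84 to 12.87) in replicate 2 of TRIM33-KO with DOX, against at most 1.30% in any other library. Counts of ERV1 calls relative to genes that include those 2 libraries are given with and without them, and a named value is given without them where its call changed.

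By name alone, the ERV1 subfamilies fall into 12 internal parts and 52 LTRs of rodent elements, and 18 internal parts and 67 LTRs whose names (mostly of the MER and LTR number series) carry no rodent tag. The rodent internal parts took 56.7% of the mean ERV1 signal over the 24 libraries, the rodent LTRs 37.8%, the other LTRs 4.52% and the other internal parts 0.956%. Of the 149, 5 had no count in any library. After the filter on low counts, 106 subfamilies entered the fit of the first set and 103 that of the pLV2 set, with 102 in both. The 42 that entered neither fit never exceeded 14 counts in a library and are not described further. Levels are given as CPM per subfamily, which depends on the length and number of its copies, so they are compared between libraries and not between subfamilies.

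The first question was which ERV1 subfamilies responded to DOX in each line. Every ERV1 subfamily past the threshold was higher with DOX, and none was lower in any line. The spread between libraries of a group, as the common coefficient of variation of the fit, was 17.6% in the first set. It was 8.73% in the pLV2 set. A smaller change could thus pass in the pLV2 set, so counts of calls are not comparable between the sets. In WT, 5 of 106 rose (adjusted p under 0.05, edgeR quasi-likelihood test adjusted over all genes and repeats tested), against 3% of all rows tested. In the libraries labelled DUXBL-KO 20 of 106 rose, against 5.35% of all rows, and leaving out any 1 of its 4 libraries gave 6 to 13. In WT pLV2 line 1 51 of 103 rose (12.5% of all rows), in line 2 72 of 103 (15.7%), in the libraries labelled TRIM24-KO 52 of 103 (13.5%), and in TRIM33-KO 79 of 103 (19.6%). Without the 2 libraries rich in CT010467.1, the TRIM24-KO count was 32 and the TRIM33-KO count stayed at 79, of which 78 rose and 1, MER31-int, fell (log2 fold change -0.77). Each of these lines then had 1 library with DOX, which is assumed to vary like those of the other groups, and this holds wherever a result is given without those 2 libraries.

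These shares lay near those of other repeats. Of the repeat subfamilies outside ERV1, 5.14% rose in WT, 18.2% for DUXBL-KO, 54.8% in pLV2 line 1, 68.4% for line 2, 49.2% for TRIM24-KO and 75.5% for TRIM33-KO. The median log2 fold change of the ERV1 subfamilies tested was 0.18 for WT, 0.31 for DUXBL-KO, 0.62 for line 1, 0.99 for line 2, 0.60 for TRIM24-KO and 1.38 for TRIM33-KO. Outside ERV1 these medians were 0.20, 0.32, 0.59, 0.93, 0.56 and 1.19 in the same order. Direction within the family depended on the scaling. When libraries were scaled to the repeats outside ERV1 in place of genes, the median of all genes shifted by -0.22, -0.37, -0.64, -0.92, -0.58 and -1.21 in that order of lines. The ERV1 calls then split into 4 up and 0 down in WT, 12 and 0 for DUXBL-KO, 28 and 16 for line 1, 39 and 23 for line 2, 31 and 17 for TRIM24-KO, and 41 and 27 for TRIM33-KO. Below, a rise is relative to genes, and the members whose direction flips on the repeat scale are named as such.

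**Figure D1:**
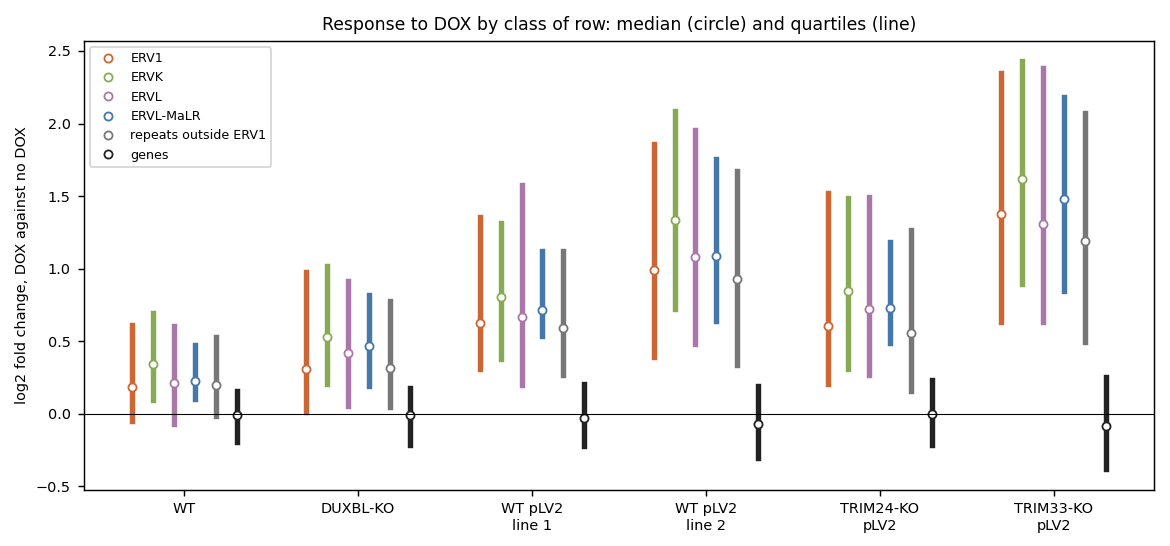
Log2 fold change with DOX (vertical axis) for ERV1, 3 other LTR families, all repeats outside ERV1 and genes in each of the 6 lines, with the median over the rows tested as a circle and the quartiles as a line. ERV1 medians run from 0.18 in WT to 1.38 in TRIM33-KO and lie close to those of the repeats outside ERV1, while the medians of genes lie between -0.0856 and -0.00279. The repeat medians are relative to genes. When libraries are scaled to repeats the ERV1 medians lie between -0.04 and 0.17 and those of ERVK between 0.12 and 0.41.

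The response differed widely from one ERV1 subfamily to the next. Of the 102 subfamilies tested in all 6 lines, 80 rose in at least 1 line and 44 rose in all 4 pLV2 lines. Of the 854 repeat subfamilies outside ERV1 tested in all 6 lines, 77.4% rose in at least 1 and 44% in all 4 pLV2 lines, against 78.4% and 43.1% of ERV1. The ERV1 counts were 78 and 31 without the 2 libraries rich in CT010467.1. The 5 that rose in all 6 lines, with those libraries or without them (4.9%, and 5.27% outside ERV1), were RLTR6B_Mm, RLTR6-int, MuRRS-int, MER89 and RLTR30. A further 13 (12.7%, and 10.1% outside ERV1) passed in pLV2 line 2 and TRIM33-KO and in no other line, and 17 without the 2 libraries. The 22 that passed in no line (21.6%, and 21.7% outside ERV1) were 9 LTRs and 6 internal parts without a rodent tag, 6 rodent LTRs and 1 rodent internal part. By name group, 11 of 12 rodent internal parts and 41 of 49 rodent LTRs rose in pLV2 line 2, with 19 of 34 other LTRs and 1 of 8 other internal parts. In TRIM33-KO the same groups gave 11, 42, 24 and 2, and 11, 41, 24 and 2 without its library rich in CT010467.1. The internal parts without a rodent tag had a median log2 fold change between -0.21 and 0.08 in the 4 pLV2 lines.

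**Figure D2:**
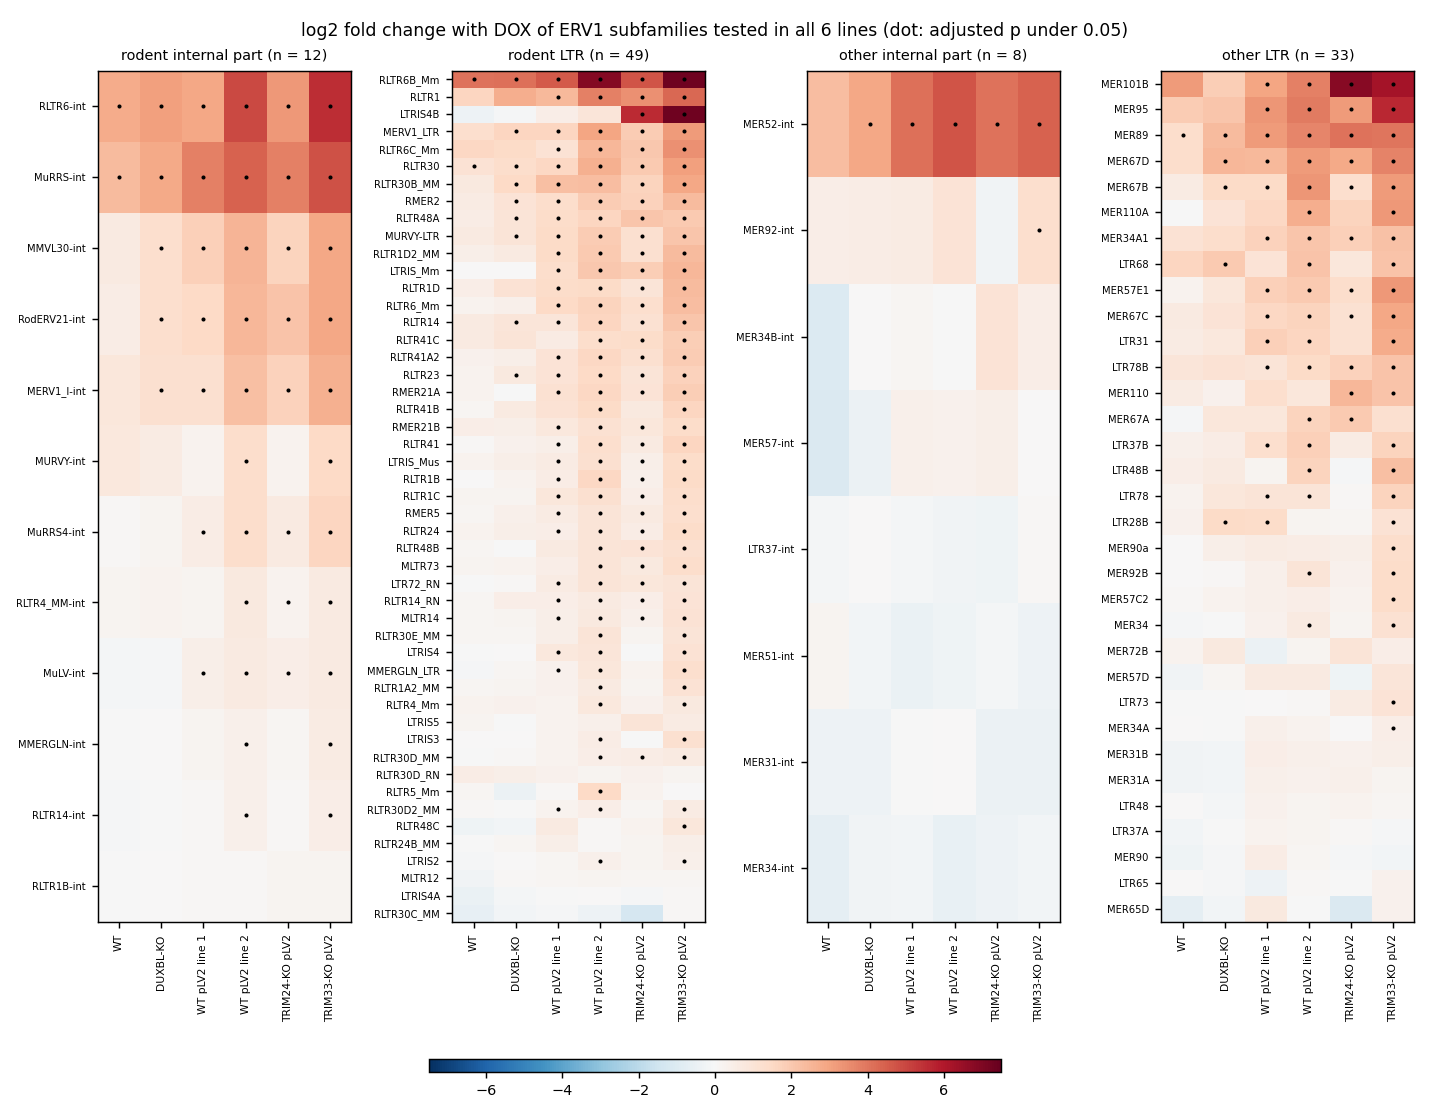
Log2 fold change with DOX (colour) of the 102 ERV1 subfamilies tested in all 6 lines, in 4 name groups ordered by the mean change, with a dot where the adjusted p is under 0.05. Dots are fewest in WT, with 5, and most in TRIM33-KO, and the spread was larger in the set of WT and DUXBL-KO. The dots of LTRIS4B in TRIM24-KO and TRIM33-KO rest on 1 library each. The colours are relative to genes, and some of the pale red cells turn blue when libraries are scaled to repeats.

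RLTR6B_Mm, a rodent LTR, had the largest log2 fold change among members with a mean of at least 50 counts in every line but TRIM24-KO, where LTRIS4B (below) exceeded it through 1 library. Its level was 11.2 and 8.99 CPM without DOX and 238 and 102 with DOX in the libraries of WT, and 10.9 and 12.7 against 264 and 153 in those labelled DUXBL-KO. In pLV2 line 1 it went from 11.2 and 11.8 to 244 and 322, and in line 2 from 7.32 and 7.35 to 1041 and 718. In TRIM24-KO it was 7.63 and 10.2 against 176 and 291, and in TRIM33-KO 9.04 and 10.04 against 1508 and 1523. Every library with DOX lay above every library without DOX, and the levels with DOX in line 2 and TRIM33-KO lay above those of the other lines. The rule that named RLTR6B_Mm asks for no overlap between arms within a line. The log2 fold change of RLTR6B_Mm was 4.08 ± 0.46 (SE, adjusted p 0.00572) in WT, 4.14 ± 0.46 for DUXBL-KO, 4.62 ± 0.24 for line 1, 6.90 ± 0.26 for line 2, 4.71 ± 0.24 for TRIM24-KO and 7.31 ± 0.26 for TRIM33-KO (edgeR quasi-likelihood test, 2 libraries a group).

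RLTR6-int, an internal part with the same number in its name, was likewise highest in line 2 and TRIM33-KO with DOX. Without DOX it lay between 20.5 and 53.8 CPM in all 12 libraries. With DOX it reached 393 and 189 for WT, 491 and 335 for DUXBL-KO, 231 and 254 for line 1, 1163 and 740.3 for line 2, 190.5 and 268 for TRIM24-KO and 1497 and 1514 for TRIM33-KO. The log2 fold changes of RLTR6-int were 2.75 ± 0.35, 3.06 ± 0.35, 2.90 ± 0.19, 4.95 ± 0.21, 3.25 ± 0.20 and 5.52 ± 0.21 in that order of lines, each past the threshold.

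MuRRS-int, the internal part of the murine retrovirus-related sequences, rose from 11.9 and 8.87 CPM to 70.2 and 35.0 in WT and from 11.4 and 13.5 to 90.2 and 87.3 in DUXBL-KO. In the pLV2 set it lay between 5.21 and 8.89 CPM in the 8 libraries without DOX. With DOX it was at 77.3 and 81.7 for line 1, 166 and 132 for line 2, 104 and 139.9 for TRIM24-KO and 229 and 220.0 for TRIM33-KO. With DOX, the WT libraries were lower than those of every other line. The log2 fold change of MuRRS-int ran from 2.35 ± 0.33 in WT to 4.79 ± 0.15 in TRIM33-KO. A related internal part, MuRRS4-int, had a log2 fold change of 0.09 ± 0.20 for WT, 0.54 ± 0.16 for line 1 (adjusted p 0.0222 by edgeR), 1.34 ± 0.15 for line 2 and 1.59 ± 0.14 for TRIM33-KO, and its change in line 1 was -0.10 when libraries were scaled to repeats.

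MER89 is an LTR without a rodent tag and was among the most responsive subfamilies. Its level was 14.4 and 13.8 CPM without and 43.7 and 27.3 with DOX in WT, and 15.5 and 15.4 against 84.0 and 73.5 in DUXBL-KO. In line 1 it was 11.3 and 8.95 against 81.6 and 104, and in line 2 10.7 and 9.19 against 126 and 127. In TRIM24-KO it was 7.27 and 9.51 against 99.2 and 191, and in TRIM33-KO 11.1 and 13.4 against 201 and 197. The library at 191 CPM is the one in which CT010467.1 took 30.4% of gene counts. The log2 fold change of MER89 was 1.33 ± 0.22 for WT (adjusted p 0.0202), 2.35 ± 0.22 for DUXBL-KO, 3.20 ± 0.25 for line 1, 3.66 ± 0.24 for line 2, 4.09 ± 0.25 for TRIM24-KO and 4.02 ± 0.23 for TRIM33-KO (edgeR). Without the 2 libraries rich in CT010467.1 it was 3.56 in TRIM24-KO and 4.08 in TRIM33-KO, which turns the order of these lines.

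RLTR30, a rodent LTR named here after its values were seen, lay between 4.12 and 8.12 CPM in the 12 libraries without DOX. With DOX it was at 16.7 and 11.8 for WT, 19.6 and 18.4 for DUXBL-KO, 13.8 and 12.8 for line 1, 32.0 and 26.5 for line 2, 13.7 and 19.1 for TRIM24-KO and 48.3 and 39.9 for TRIM33-KO. No library with DOX overlapped one without. Its log2 fold change was 1.09 ± 0.20 in WT (adjusted p 0.0355 by edgeR) and 3.08 ± 0.15 in TRIM33-KO, and the WT value for RLTR30 was 0.87 with an adjusted p of 0.0824 when libraries were scaled to repeats.

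The 5 WT calls were made with a spread estimated from all 8 libraries of the set. When the fit held the 4 WT libraries alone, no ERV1 subfamily passed, although 25 had an unadjusted p under 0.05. None passed either without WT without DOX replicate 1 or without replicate 2 of that group, and 11 passed without WT with DOX replicate 2.

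**Figure D3:**
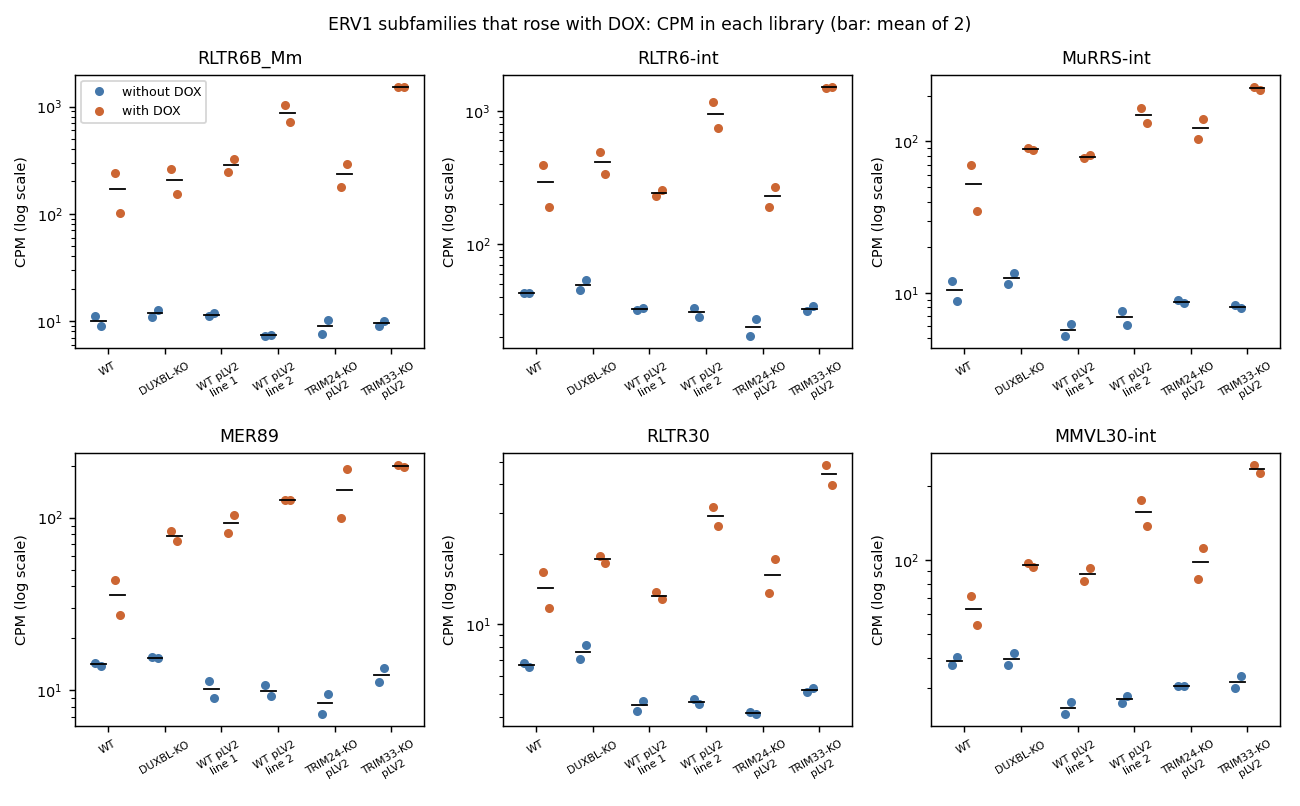
CPM on a log axis in each of the 24 libraries for 6 ERV1 subfamilies, in blue without DOX and in orange with DOX, with a bar at the mean of 2 libraries. In every line the libraries with DOX lie above those without, and RLTR6B_Mm reaches 1508 and 1523 CPM in TRIM33-KO. The 6 were named by a rule that asks for no overlap between arms within a line, or after their values were seen.

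VL30 elements are mouse retrotransposons without a full set of viral genes, whose RNA can be packaged by murine leukaemia virus. Their internal part, MMVL30-int, lay between 23.6 and 42.0 CPM without DOX. With DOX it was at 71.5 and 54.3 for WT, 97.5 and 94.0 for DUXBL-KO, 82.0 and 93.0 for line 1, 177 and 137 for line 2, 84.0 and 112 for TRIM24-KO and 244 and 227 for TRIM33-KO, above every library without DOX. The log2 fold change of MMVL30-int was 0.70 ± 0.15 for WT, where it missed the threshold (adjusted p 0.0551, edgeR), and it rose by 1.27 ± 0.15 for DUXBL-KO, 1.80 ± 0.14 for line 1, 2.54 ± 0.13 for line 2, 1.67 ± 0.13 for TRIM24-KO and 2.89 ± 0.13 for TRIM33-KO. RLTR6_Mm, the LTR of VL30 elements, had a log2 fold change of 0.24 ± 0.15 in WT and 0.39 ± 0.15 in DUXBL-KO, neither past the threshold. It rose by 1.47 ± 0.17 for line 1, 1.66 ± 0.16 for line 2, 1.26 ± 0.16 for TRIM24-KO and 2.32 ± 0.16 for TRIM33-KO. RLTR6_Mm and RLTR6B_Mm are named as relatives, and how the authors' counting shared reads between them is not given in the sources used here.

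Some of the other rodent members stayed below the threshold in the first set, where the spread was larger, and passed in the pLV2 lines. LTRIS_Mm, an LTR of the LTR-IS group, had a log2 fold change of 0.01 ± 0.18 in both WT and DUXBL-KO and rose by 1.30 ± 0.13 for line 1, 2.02 ± 0.12 for line 2, 1.82 ± 0.13 for TRIM24-KO and 2.51 ± 0.12 for TRIM33-KO. Its level without DOX was 14.5 to 24.7 CPM in the first set and 5.74 to 7.08 CPM in the pLV2 set, and the sets were fitted apart, so this difference was not tested. RLTR41 rose by 0.43 ± 0.11, 1.28 ± 0.10, 0.65 ± 0.10 and 1.60 ± 0.10 in the 4 pLV2 lines in the same order, and when libraries were scaled to repeats its change was -0.21 in line 1 and 0.06 in TRIM24-KO, where the call was lost (adjusted p 0.672, edgeR). RMER5, a rodent LTR counted at 57.5 to 98.4 CPM without DOX, rose by 0.61 ± 0.08, 0.94 ± 0.08, 0.69 ± 0.08 and 1.28 ± 0.08, and on the repeat scale it lay between -0.03 and 0.09 and passed in none of the 4 (adjusted p 0.355 to 0.897, edgeR). MLTR14 rose by 0.43 ± 0.09, 0.70 ± 0.09, 0.36 ± 0.09 and 1.08 ± 0.09, and on the repeat scale it lay between -0.23 and -0.13 in all 4. RLTR1 was scarce, with 1 to 4 counts in each pLV2 library without DOX. With DOX it had 13 and 12 counts for line 1, 31 and 30 for line 2, 9 and 11 for TRIM24-KO and 31 and 32 for TRIM33-KO, and all 4 lines passed. Its log2 fold change was 4.32 ± 0.44 in TRIM33-KO, and no fold is given for the others, whose libraries without DOX held 3 counts or fewer. The Y-linked family MURVY-int was at 0.552 to 1.82 CPM without DOX and passed in line 2 (1.30 ± 0.43) and TRIM33-KO (1.49 ± 0.38). Scaled to repeats, MURVY-int was at 0.38 (adjusted p 0.389) and 0.28 (adjusted p 0.465, edgeR) in those lines, and both calls were lost.

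Of the 8 internal parts without a rodent tag that were tested in the pLV2 lines, MER52-int passed in all 4 lines, and MER92-int passed in TRIM33-KO (1.24 ± 0.40, adjusted p 0.0231, edgeR, and 0.117 without the 2 libraries rich in CT010467.1). MER52-int, chosen after its values were seen, lay between 0.206 and 1.176 CPM without DOX. With DOX it was at 3.600 and 1.53 for WT, 6.31 and 4.86 for DUXBL-KO, 6.39 and 6.66 for line 1, 10.7 and 9.69 for line 2, 6.13 and 11.7 for TRIM24-KO and 14.9 and 15.5 for TRIM33-KO. Its log2 fold change was 2.29 ± 0.67 in WT (adjusted p 0.177), 2.88 ± 0.60 in DUXBL-KO (adjusted p 0.0332, edgeR) and 4.08 to 4.72 in the pLV2 lines.

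MMERGLN-int and RLTR1B-int had the highest mean CPM of the ERV1 subfamilies in the libraries without DOX. That ranking also depends on the length and number of their copies. MMERGLN-int, the internal part of the GLN elements, was at 544 and 589.9 CPM without and 530.4 and 564 with DOX in WT, and at 593 and 695 against 636 and 669 in DUXBL-KO. In line 1 it was 480.3 and 462 against 544 and 525, in line 2 249 and 220.1 against 344 and 273, in TRIM24-KO 1075 and 1013 against 1119 and 1148, and in TRIM33-KO 232 and 175 against 355 and 264. Libraries with and without DOX overlapped in WT and DUXBL-KO. The log2 fold change of MMERGLN-int passed the threshold in line 2 (0.39 ± 0.14, adjusted p 0.0404) and TRIM33-KO (0.61 ± 0.14, adjusted p 0.00218, edgeR), and it lay between -0.60 and -0.46, lower past the threshold, in all 4 pLV2 lines when libraries were scaled to repeats. The call in line 2 was lost without line 2 without DOX replicate 2 or line 2 with DOX replicate 1, and that in TRIM33-KO without replicate 1 of its libraries with DOX.

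RLTR1B-int was the only rodent internal part that passed in none of the 6 lines relative to genes. Its level was 638 and 482 CPM without and 620.3 and 471 with DOX in WT, and 572 and 654 against 559.9 and 687 in DUXBL-KO. It was 259.8 and 285 against 277 and 301 for line 1, 107 and 174 against 133 and 162 for line 2, 946 and 872 against 1068 and 1061 for TRIM24-KO, and 356 and 365 against 393 and 429 for TRIM33-KO. The log2 fold changes of RLTR1B-int were -0.04 ± 0.19, 0.02 ± 0.19, 0.08 ± 0.15, 0.07 ± 0.15, 0.23 ± 0.15 and 0.19 ± 0.15 in the usual order of lines, and on the repeat scale they were -0.56, -0.86, -0.36 and -1.02 in the 4 pLV2 lines, lower past the threshold in lines 1 and 2 and TRIM33-KO (adjusted p 0.00688, 0.000119 and 1.34e-05) and not in TRIM24-KO (adjusted p 0.0658, edgeR). Levels of MMERGLN-int and RLTR1B-int differed more between lines than between the arms of any line.

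Among murine leukaemia virus-like members, RLTR4_MM-int had a log2 fold change of 0.23 ± 0.29 in WT and 0.26 ± 0.29 in DUXBL-KO, and it passed in line 2 (0.75 ± 0.10), TRIM33-KO (0.65 ± 0.10) and TRIM24-KO (0.29 ± 0.10, adjusted p 0.0427 by edgeR, and 0.230 without the 2 libraries rich in CT010467.1). Its LTR, RLTR4_Mm, passed in line 2 (0.77 ± 0.13) and TRIM33-KO (0.72 ± 0.13). MuLV-int had log2 fold changes of -0.13 ± 0.16 and -0.11 ± 0.15 in WT and DUXBL-KO and passed in all 4 pLV2 lines, at 0.46 ± 0.12, 0.68 ± 0.11, 0.51 ± 0.12 and 0.69 ± 0.11. LTRIS2, an LTR of the LTR-IS group, had log2 fold changes of -0.06 ± 0.20 in WT and 0.05 ± 0.20 in DUXBL-KO and passed in line 2 (0.36 ± 0.11) and TRIM33-KO (0.40 ± 0.10). On the repeat scale RLTR4_MM-int, RLTR4_Mm, MuLV-int and LTRIS2 were below 0 in all 4 pLV2 lines. The calls of MuLV-int (adjusted p 0.0548), MLTR14 (0.163) and MuRRS4-int (0.0973) in TRIM24-KO were also lost by edgeR without the 2 libraries rich in CT010467.1.

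**Figure D4:**
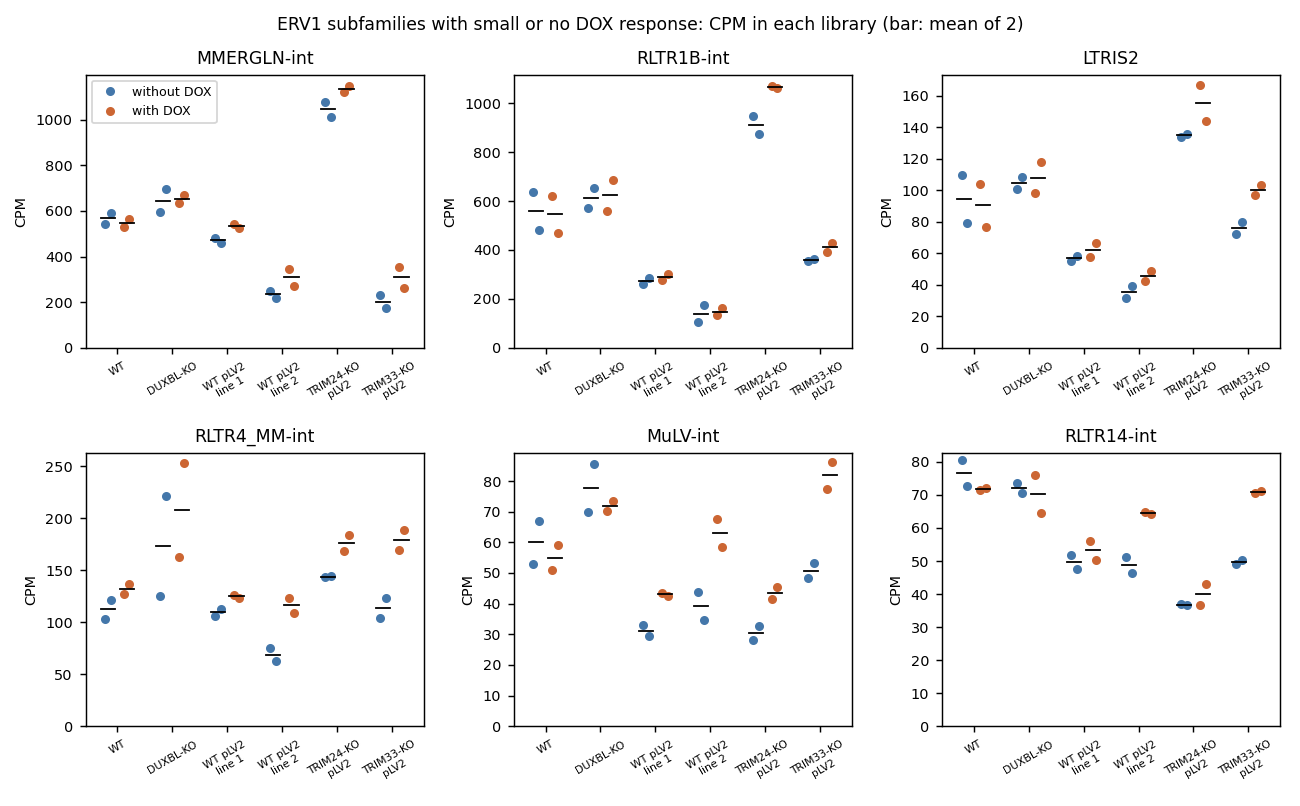
CPM on a linear axis from 0 in each of the 24 libraries for 6 ERV1 internal parts and LTRs with little response, in blue without DOX and in orange with DOX, with a bar at the mean of 2 libraries. Levels differ more between lines than between arms for MMERGLN-int and RLTR1B-int, which are highest in the libraries labelled TRIM24-KO; the small rises in the pLV2 lines are relative to genes and lie below 0 when libraries are scaled to repeats.

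The makeup of ERV1 RNA changed more than its share of repeat RNA. ERV1 took 2.32 and 2.21% of repeat counts without DOX and 2.25 and 2.12% with DOX in WT, and 2.24 and 2.32% against 2.27 and 2.29% in line 1. In line 2 the share was 1.75 and 1.77% against 2.22 and 2.06%, and in TRIM33-KO 2.15 and 2.26% against 2.25 and 2.45%. It was lower with DOX in DUXBL-KO, at 2.39 and 2.35% against 2.08 and 2.11%, and in TRIM24-KO, at 3.83 and 3.84% against 3.09 and 3.08%. RLTR6-int and RLTR6B_Mm together took 0.865 to 3.02% of ERV1 counts in the 12 libraries without DOX. With DOX they took 17.9 and 10.3% for WT, 18.5 and 12.1% for DUXBL-KO, 16.2 and 18.4% for line 1, 42.7 and 35.7% for line 2, 8.06 and 9.46% for TRIM24-KO and 42.1 and 41.7% for TRIM33-KO. MMERGLN-int and RLTR1B-int together took 26.8 to 62.1% without DOX and 9.26 to 48.1% with DOX. Wilson 95% intervals on these shares were at most 1.24 percentage points wide, and they cover counting error only, since the libraries have no molecular identifiers that the labels name.

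LTRs and internal parts of matching name differed in their response. The 7 pairs were picked by name, after their values were seen, and the differences are descriptions with no test. RLTR6B_Mm had a larger log2 fold change than RLTR6-int in 6 of 6 lines, by 1.08 to 1.95. RLTR14 exceeded RLTR14-int in 6 of 6 lines, by 0.78 to 1.58, and RLTR1B exceeded RLTR1B-int in 6 of 6, by 0.08 to 1.51. RLTR14 had a log2 fold change of 2.09 ± 0.15 in TRIM33-KO, where RLTR14-int had 0.51 ± 0.08, which was -0.70 on the repeat scale. RLTR1B had 1.58 ± 0.11 in line 2, where RLTR1B-int had 0.07 ± 0.15. MERV1_LTR exceeded MERV1_I-int in 6 of 6 lines by 0.21 to 0.72, and RLTR4_Mm exceeded RLTR4_MM-int in 6 of 6 by only 0.01 to 0.07. MMERGLN_LTR and MURVY-LTR exceeded their internal parts in 5 of 6 lines, with differences of -0.02 to 0.63 and -0.15 to 1.19. The LTR did not lead everywhere. RLTR6_Mm, the LTR of VL30 elements, is not among the 7 pairs. It had a smaller log2 fold change than MMVL30-int in 6 of 6 lines, with 1.26 against 1.67 in TRIM24-KO and 2.32 against 2.89 in TRIM33-KO. RLTR6_Mm also lay below RLTR6-int in 6 of 6 lines, and RLTR6-int had 5.52 in TRIM33-KO. An LTR row can hold reads of proviral LTRs and of solo LTRs, which the counts do not separate.

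**Figure D5:**
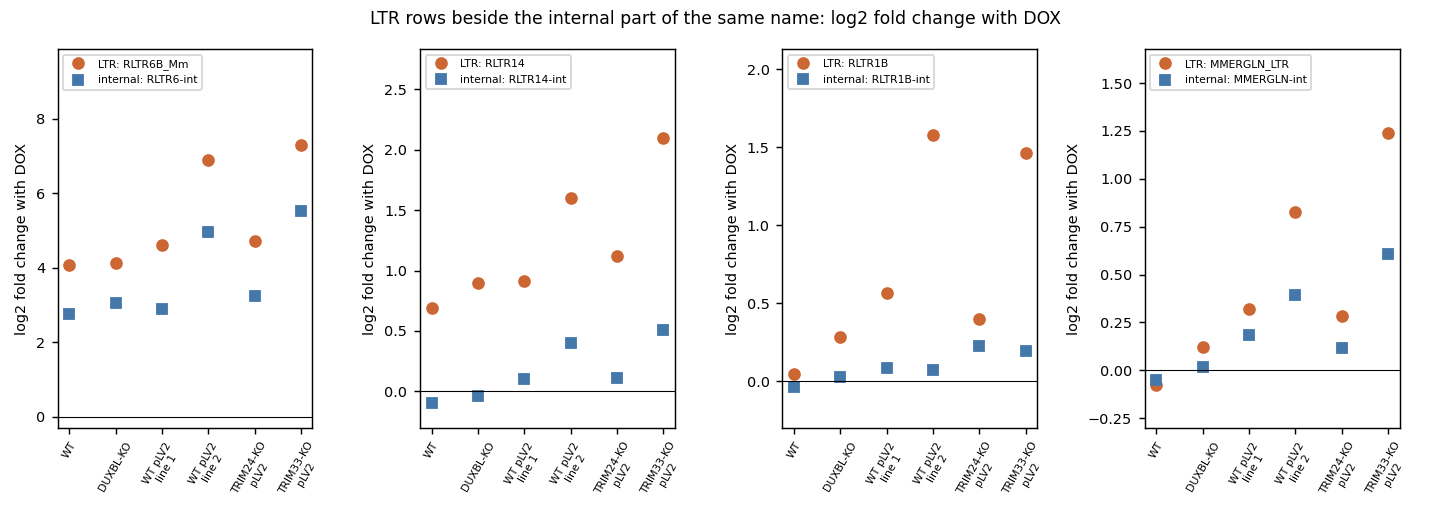
Log2 fold change with DOX (vertical axis, relative to genes) of 4 LTRs (orange circles) and of the internal part with the matching name (blue squares) in each of the 6 lines. The LTR lies above the internal part in 6 of 6 lines for RLTR6B_Mm, RLTR14 and RLTR1B and in 5 of 6 for MMERGLN_LTR. RLTR6_Mm, an LTR that is not shown, lies below RLTR6-int and below MMVL30-int in 6 of 6 lines. When libraries are scaled to repeats, the points move down, and RLTR1B-int and MMERGLN-int lie below 0 in all 4 pLV2 lines.

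A second question was whether the DOX response of ERV1 differed between lines, tested as an interaction. Between DUXBL-KO and WT no ERV1 subfamily passed by edgeR or by DESeq2, with 5 at an unadjusted p under 0.05, and 0% of all rows and of repeats outside ERV1 passed. Between TRIM24-KO and the mean of both WT pLV2 lines 1 of 103 passed, against 0.467% of all rows and 1.16% of repeats outside ERV1. It was RLTR1B, with a log2 difference of -0.68 ± 0.12 (adjusted p 0.0209, edgeR). The adjusted p for RLTR1B was 0.0635 without the 2 libraries rich in CT010467.1 and 0.891 against line 1 alone (-0.17). The difference of RLTR6B_Mm was -1.06 with all libraries (adjusted p 0.155, edgeR) and -1.48 without those 2. With all libraries RLTR6B_Mm differed by 0.08 against line 1 alone, which did not pass. Against line 2 alone it differed by -2.20 (adjusted p 0.00339, edgeR). For RLTR1B the difference against line 2 alone was -1.182. On the repeat scale the difference of RLTR1B was -0.47 (adjusted p 0.130, edgeR), and RLTR48A alone passed, with a larger response in TRIM24-KO (0.74).

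Between TRIM33-KO and the mean of both WT lines, 18 of 103 responses were larger and none smaller, against 1.71% of all rows larger and 21.2% of repeats outside ERV1, and the count was also 18 without the 2 libraries rich in CT010467.1. The leading members by p were RLTR6-int (1.59 ± 0.22, adjusted p 0.0018), RLTR41 (0.75 ± 0.13, adjusted p 0.00493) and RLTR6B_Mm (1.55 ± 0.27, adjusted p 0.00579, edgeR). Against line 2 alone none of the 103 passed, with 20 at an unadjusted p under 0.05, and the differences of RLTR6-int, RLTR41 and RLTR6B_Mm were 0.57, 0.32 and 0.41. Against line 1 alone they were 2.62, 1.17 and 2.69. On the repeat scale the difference of RLTR41 was 0.32 and its call was lost (adjusted p 0.0758, edgeR). TRIM24-KO and TRIM33-KO were set against the same WT libraries.

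The 2 WT pLV2 lines themselves differed. In 6 of 103 ERV1 subfamilies the response was larger in line 2 than in line 1 and in none was it smaller, against 0.567% of all rows and 6.15% of repeats outside ERV1. These were RLTR6-int (2.06 ± 0.26, adjusted p 0.00192), RLTR6B_Mm (2.28 ± 0.32, adjusted p 0.00381), RLTR1B (1.01 ± 0.15, adjusted p 0.00517), RLTR41 (0.86 ± 0.15), MERV1_I-int (1.04 ± 0.20) and MERV1_LTR (1.36 ± 0.27), all by edgeR. When libraries were scaled to repeats, the calls of RLTR1B (adjusted p 0.0624) and RLTR41 (adjusted p 0.0707, edgeR) were lost.

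The 2-cell-like response was set beside these differences. The summed CPM of 10 markers of the 2-cell-like state was 0.364 to 6.37 in the libraries without DOX. With DOX it was 1751 and 691 for WT, 2065 and 1332 for DUXBL-KO, 1401 and 1728 for line 1, 4880.4 and 3677 for line 2, 1608 and 2361 for TRIM24-KO and 7183 and 6432 for TRIM33-KO. All 10 markers rose in each of the 6 lines. Tested as an interaction, none of the 10 differed past the threshold between TRIM24-KO or TRIM33-KO and the mean of the WT pLV2 lines. Between lines 2 and 1, 3 of the 10 had a larger response in line 2. The summed CPM of RLTR6-int and RLTR6B_Mm over that of the markers, in the libraries with DOX, was 0.360 and 0.421 for WT, 0.366 and 0.366 for DUXBL-KO, 0.339 and 0.333 for line 1, 0.452 and 0.397 for line 2, 0.228 and 0.237 for TRIM24-KO and 0.418 and 0.472 for TRIM33-KO. Lines with the highest markers, line 2 and TRIM33-KO, also had the highest RLTR6 levels, and TRIM24-KO had the lowest ratio. Of all genes tested, 2.88% rose and 0.133% fell in WT, 4.65% and 0.498% for DUXBL-KO, 10.2% and 6.53% for line 1, 12.9% and 14.3% for line 2, 11.6% and 5.16% for TRIM24-KO, and 16.6% and 20.3% for TRIM33-KO. Of the 10 embryonic stem cell markers, none passed in WT or DUXBL-KO, 2 rose and 2 fell in line 1, 1 rose and 5 fell in line 2, 5 fell in TRIM24-KO (3 without the 2 libraries rich in CT010467.1), and 1 rose and 5 fell in TRIM33-KO. Of the 5 fibroblast markers tested, 1 rose in line 1, 1 rose and 1 fell in line 2, 2 rose in TRIM24-KO, and 2 rose and 1 fell in TRIM33-KO. In bulk RNA, more responding cells and more RNA per cell cannot be told apart, and the part of these markers in the line differences was not tested.

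The last question was how ERV1 levels compared between lines within an arm. DUXBL-KO and WT did not differ past the threshold in any ERV1 subfamily. Without DOX 6 had an unadjusted p under 0.05, with DOX 21 did, and DESeq2 called 0 and 1. The share of all rows called was 0.0368% and 0.0683%, and that of repeats outside ERV1 was 0% in both arms.

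Without DOX, 13 of 103 ERV1 subfamilies were higher and 3 lower in the libraries labelled TRIM24-KO than in the mean of the WT pLV2 lines, against 41.4% of all rows that differed and 13.1% of repeats outside ERV1. On the repeat scale the split was 11 and 9. The leading members were RLTR1B-int (2.22 ± 0.12), RLTR1B (2.07 ± 0.08), MMERGLN-int (1.65 ± 0.11), LTRIS2 (1.59 ± 0.08) and MMERGLN_LTR (1.502 ± 0.09). RLTR14-int (-0.42 ± 0.07), MER34-int (-0.56 ± 0.22) and MER110 were lower. MER110 held 3 and 2 counts in the TRIM24-KO libraries without DOX, so no fold is given for it. With DOX the same contrast gave 10 higher and 10 lower (39.1% of all rows and 14.3% of repeats outside ERV1 differed), and 44 of 103 (8 higher, 36 lower) against line 2 alone. RLTR1B-int (2.37 ± 0.12) and LTRIS2 (1.55 ± 0.08) were again higher, and RLTR6-int (-1.07 ± 0.16) and RLTR6B_Mm (-1.10 ± 0.17) were lower than the mean of the WT lines. The TRIM24-KO libraries with DOX overlapped those of line 1 in RLTR6-int and RLTR6B_Mm and lay below those of line 2. Against line 1 alone RLTR6-int differed by -0.08 (adjusted p 0.770) and RLTR6B_Mm by -0.28 (adjusted p 0.288), and against line 2 alone by -2.06 and -1.92 (edgeR). Without the 2 libraries rich in CT010467.1 the split was 8 and 16, and on the repeat scale 13 and 7. Markers of other cell types also differed in this contrast. Of 6 trophoblast and endoderm markers 5 were tested, and 4 were higher in TRIM24-KO in each arm, with a median log2 fold change of 1.64 without and 2.96 with DOX. The 6 summed to 35.4 to 54.7 CPM in TRIM24-KO, 17.9 to 19.5 in line 1 and 7.01 to 10.4 in line 2. Of the 5 fibroblast markers tested, 3 were lower without DOX and none passed with DOX, and of the 10 embryonic stem cell markers 3 were higher and 5 lower without DOX and 4 and 4 with DOX. Of the 10 markers of the 2-cell-like state, none passed without DOX and 2 were higher and 5 lower with DOX. The part of these markers in the ERV1 differences was not tested.

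TRIM33-KO without DOX had 13 ERV1 subfamilies higher and 2 lower than the mean of the WT pLV2 lines, against 22.5% of all rows and 7.42% of repeats outside ERV1 that differed, and 6 differed against line 2 alone. LTRIS2 (0.76 ± 0.09) and RLTR1B-int (0.88 ± 0.13) were higher, and MMERGLN-int (-0.71 ± 0.12) and MMERGLN_LTR (-0.63 ± 0.10) were lower than that mean. The TRIM33-KO libraries overlapped those of line 2 in MMERGLN-int and lay below those of line 1, and against line 2 alone the difference was -0.21 (adjusted p 0.622) for MMERGLN-int and -0.26 (adjusted p 0.387, edgeR) for MMERGLN_LTR. With DOX, 69 were higher and 1 lower, against 29% of all rows that differed and 63.2% of repeats outside ERV1, with 33 against line 2 alone and a split of 31 and 8 on the repeat scale. When the 2 libraries rich in CT010467.1 were left out, 57 were higher and 0 lower. RLTR6-int was higher by 1.65, RLTR6B_Mm by 1.60 and RLTR30 by 1.16. Against line 1 alone these values were 2.64, 2.42 and 1.73, and against line 2 alone 0.66, 0.79 and 0.59, with adjusted p of 0.0339, 0.0236 and 0.0164 (edgeR). With DOX MMERGLN-int was lower (-0.39) than the mean, a call that was lost without the 2 libraries (-0.17, adjusted p 0.418), with 0.01 (adjusted p 0.992, edgeR) against line 2 alone. Of the 5 fibroblast markers tested, 3 were higher in TRIM33-KO without DOX and 2 with DOX, and none was lower. Of the 10 embryonic stem cell markers 2 were higher and 3 lower without DOX and 2 and 6 with DOX (1 and 3 without the 2 libraries). None of the trophoblast and endoderm markers passed in either arm. Of the 2-cell-like markers none passed without DOX, and 9 of 10 were higher with DOX. The part of these markers was not tested.

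Line 2 without DOX differed from line 1 in 12 of 103 ERV1 subfamilies, 5 higher and 7 lower, against 37% of all rows and 20.3% of repeats outside ERV1. MMERGLN-int (-1.004 ± 0.14), RLTR1B-int (-0.96 ± 0.15), RLTR1B (-0.77 ± 0.11), MMERGLN_LTR (-0.74 ± 0.11), LTRIS2 (-0.68 ± 0.11), RLTR4_MM-int (-0.67 ± 0.10) and RLTR41 (-0.47 ± 0.11) were lower in line 2, and LTR28B, RLTR1D, RLTR48A, MuLV-int and RMER5 were higher by 0.23 to 1.28. On the repeat scale the split was 2 and 11, and RLTR48A, MuLV-int and RMER5 no longer passed (adjusted p 0.0973, 0.287 and 0.572 by edgeR). With DOX, 39 were higher in line 2, and RLTR1B-int, MMERGLN-int and LTRIS2 were lower, against 40.8% of all rows and 55% of repeats outside ERV1 that differed, and the split was 15 and 11 on the repeat scale. Of the 5 fibroblast markers tested, 3 were higher and 1 lower in line 2 in each arm, with a median log2 difference of 1.08 without and 0.74 with DOX, and all 11 summed to 28.5 to 36.0 CPM in line 2 and 17.9 to 25.5 in line 1. Of the trophoblast and endoderm markers 1 was lower in line 2 without DOX and 3 with DOX, and of the 10 embryonic stem cell markers 3 were higher and 5 lower without DOX and 2 and 7 with DOX. Of the 10 markers of the 2-cell-like state 4 were lower without DOX, and 9 were higher and 1 lower with DOX. The part of these markers in the differences between the WT lines was not tested. RLTR1B-int and LTRIS2 were higher in TRIM24-KO and in TRIM33-KO than in either WT line alone, in both arms, and MMERGLN-int was higher in TRIM24-KO than in either.

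LTRIS4B, an LTR of the LTR-IS group described after its values were seen, was called in TRIM24-KO and TRIM33-KO on 1 library each. It had 5372 counts in TRIM24-KO with DOX replicate 2 and 85 in replicate 1, and 1722 counts in TRIM33-KO with DOX replicate 2 and 32 in replicate 1. The other 22 libraries held 3 to 188. The 2 high libraries are those in which CT010467.1 took 30.4% and 12.9% of gene counts, and the part of that gene in the counts of LTRIS4B was not tested. Its log2 fold change was 5.58 in TRIM24-KO (adjusted p 0.0119) and 7.29 in TRIM33-KO (adjusted p 0.00943, edgeR), and without the 2 libraries it was -0.01 (adjusted p 0.998) and 2.31 (adjusted p 0.0593).

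Genes that silence ERV1 proviruses were read from a list of 24, all of them tested. None passed in WT or DUXBL-KO. In the pLV2 set 3 rose and 3 fell in line 1, 4 rose and 5 fell in line 2, 3 rose and 1 fell in TRIM24-KO, and 6 rose and 8 fell in TRIM33-KO, and the median log2 fold change of the list lay between -0.13 and 0.13 in all 6 lines. Beside these counts, 10.2% of all genes rose and 6.53% fell for line 1, 12.9% and 14.3% for line 2, 11.6% and 5.16% for TRIM24-KO, and 16.6% and 20.3% for TRIM33-KO. Without the 2 libraries rich in CT010467.1, 2 of the list rose and 0 fell in TRIM24-KO, and 6 rose and 4 fell in TRIM33-KO. Zfp809, a KRAB zinc finger protein that binds the proline primer site of murine leukaemia virus-like proviruses and brings TRIM28, had the largest change. Its level was 30.7 and 35.0 CPM without and 89.7 and 101 with DOX in line 1, 21.6 and 19.7 against 93.9 and 86.9 in line 2, 55.8 and 51.3 against 156 and 197 in TRIM24-KO, and 17.2 and 15.9 against 133 and 124 in TRIM33-KO. Zfp809 rose by 1.54 ± 0.11 for line 1, 2.13 ± 0.11 for line 2, 1.72 ± 0.10 for TRIM24-KO and 2.96 ± 0.11 for TRIM33-KO, and it missed the threshold in WT (0.45 ± 0.27) and DUXBL-KO (0.90 ± 0.28), with adjusted p of 0.665 and 0.143 by edgeR.

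Trim28, the corepressor itself, rose by 0.24 ± 0.06, 0.32 ± 0.06, 0.40 ± 0.06 and 0.50 ± 0.06 in lines 1 and 2, TRIM24-KO and TRIM33-KO. Setdb1 rose by 0.22 to 0.25 in the same 4 lines. Mphosph8, a subunit of the HUSH silencing complex, fell by 0.23 ± 0.07 in line 1, by 0.29 ± 0.07 in line 2 and by 0.32 ± 0.07 in TRIM33-KO. Ehmt2, an H3K9 methyltransferase, fell by 0.29 ± 0.09, 0.40 ± 0.09 and 0.38 ± 0.09 in those lines, and Morc3 fell by 0.29 ± 0.06 in line 2, 0.22 ± 0.06 in TRIM24-KO and 0.39 ± 0.06 in TRIM33-KO. Among DNA methyltransferase genes, Dnmt3a fell by 0.40 ± 0.09 in line 1, Dnmt3b fell by 0.27 ± 0.08 in line 2 and by 0.25 ± 0.08 in TRIM33-KO, and Dnmt1 fell by 0.18 ± 0.06 in TRIM33-KO. Without the 2 libraries rich in CT010467.1 the calls of Setdb1 (adjusted p 0.386) and Morc3 (0.155) in TRIM24-KO and of Dnmt3b (0.124) and Dnmt1 (0.122) in TRIM33-KO were lost by edgeR.

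Of 4 genes for cell surface receptors of gammaretroviruses, none passed in WT or DUXBL-KO. Slc7a1, an amino acid transporter that is the receptor of ecotropic murine leukaemia virus, fell by 0.45 ± 0.07, 0.49 ± 0.07, 0.60 ± 0.07 and 0.64 ± 0.07 in lines 1 and 2, TRIM24-KO and TRIM33-KO. The phosphate transporter gene Slc20a2 fell in lines 1 and 2 and TRIM33-KO, and Slc20a1 in line 2 and TRIM33-KO. The share of all genes that fell was 14.3% in line 2 and 20.3% in TRIM33-KO. Xpr1, the xenotropic and polytropic receptor, had log2 fold changes of -0.40 to 0.09, none past the threshold. Of the captured ERV1 envelope genes, Syna lay at 0.219 to 0.994 CPM. It was too scarce to be tested in the first set, and in the pLV2 lines its log2 fold change was -0.22 to 0.06, none past the threshold, with standard errors of 0.53 to 0.58. Synb had no count in any library.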

How the data were processed

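The deposited files are 24 tables of raw counts for genes and for repeat subfamilies, which the authors made from rRNA-depleted, strand-specific, 75 bp paired-end RNA-seq. Per the submitters' processing notes, bcl2fastq 2.20.0, cutadapt 1.18, STAR 2.7.6a and the mm10 build were used; the tool that assigned the counts, and its handling of reads with several matches, are not given in the sources used here. That handling decides how reads are shared between related subfamilies.

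Groups follow the sample titles. Genes and repeats were fitted together with edgeR 4.0.16 (R 4.3.3, quasi-likelihood test), with the 8 libraries of the first set and the 16 of the pLV2 set fitted apart. Library sizes and TMM factors came from gene rows. Rows were filtered by filterByExpr, and p-values were adjusted by Benjamini-Hochberg over all 19041 or 19044 rows tested, at a threshold of 0.05. The standard error is the log2 fold change over the root of F. TRIM24-KO and TRIM33-KO were set against the mean of both WT pLV2 lines. The steps were tested on simulated data. Alternatives, DESeq2 1.42.0 among them, are in the closing section.

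The members, gene lists and rules were chosen with earlier results of these data known. Members named are the 4 with the smallest p per line among those with a mean of at least 50 counts and no overlap between arms, the 8 with the highest mean CPM, a fixed list of rodent families, and the 3 with the smallest p per interaction. RLTR30, LTRIS4B, MER52-int, MER92-int, the LTR and internal pairs, and further members of the comparisons between lines fall outside that rule and were chosen after their values were seen. The names RodERV21-int, MERV1_I-int, MERV1_LTR and LTR72_RN were added to the rodent group after the names were seen.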

Additional observations from a re-analysis of the deposited data

Results flagged for a closer look

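The results here are those in which the DOX response differed between lines by a test of the difference itself. The count was 1 ERV1 subfamily between TRIM24-KO and WT pLV2, 18 between TRIM33-KO and WT pLV2, and 6 between WT pLV2 lines 2 and 1, each of 103 tested, while 1.16%, 21.2% and 6.15% of the repeats outside ERV1 passed in the same tests. Between TRIM24-KO and WT pLV2 the response of RLTR1B differed by -0.68. Its lowest adjusted p over the edgeR and DESeq2 alternatives was 6.02e-07, and against line 1 alone it was 0.891 (edgeR). Between TRIM33-KO and WT pLV2 the differences were 1.59 for RLTR6-int, 0.75 for RLTR41 and 1.55 for RLTR6B_Mm. The highest adjusted p over the alternatives was 0.879 for RLTR6-int and 0.986 for RLTR6B_Mm, both against line 2 alone. RLTR41 had 0.879 there (all by edgeR). The differences of RLTR1B and RLTR41 could not pass in the alternative that requires a log2 fold change of at least 1. Between WT pLV2 lines 2 and 1 they were 2.06 for RLTR6-int, 2.28 for RLTR6B_Mm and 1.01 for RLTR1B, with highest adjusted p of 0.0174, 0.0232 and 0.0624.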

How the results depend on the processing

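Each group had 2 libraries, and 42 of 149 members had too few counts to be tested. Leaving out 1 library leaves a group with a lone library, which is assumed to vary like the other groups. Counts of ERV1 calls that moved by over 1.5 times are given here.

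With DOX in WT (5 calls), 9 passed when p-values were adjusted over repeats alone, 18 with no filter, 9 with the replicate number as a block, 24 with that block within line, 10 by DESeq2 and 0 with only the compared groups in the fit, and leaving out 1 library gave 0 to 11. In DUXBL-KO (20 calls) the counts were 31 over repeats alone, 12 when scaled to repeats outside ERV1 and 40 with the block within line, and leaving out 1 library gave 6 to 13, with fewer calls without any of its 4 libraries. For DUXBL-KO against WT (0 calls), no filter gave 1 without DOX and 9 with DOX, the replicate block gave 2 and 3, and DESeq2 gave 1 with DOX. In TRIM24-KO (52 calls), 32 passed without the 2 libraries rich in CT010467.1, an alternative chosen after seeing the data, and leaving out 1 library gave 34 to 52, the lowest without replicate 2 with DOX.

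Requiring a log2 fold change of at least 1 left 33 calls in line 1. It left 7, 9 and 0 for TRIM24-KO against WT without DOX, with DOX and for the interaction, 1, 25 and 3 for TRIM33-KO, and 2 and 10 for line 2 against line 1 without and with DOX. Against WT line 2 alone TRIM24-KO gave 44 with DOX and 5 for the interaction, and TRIM33-KO gave 6, 33 and 0. Against line 1 alone the TRIM24-KO interaction gave 0. Scaling to repeats gave 7, 39 and 9 for TRIM33-KO and 26 for line 2 against line 1 with DOX. Adjusting over repeats alone gave 8 for TRIM33-KO without DOX, 37 for its interaction and 18 for that of line 2 against line 1. No filter gave 8 for the TRIM24-KO interaction and 16 for that of line 2 against line 1. The replicate block within line gave 7, 29 and 19 for the TRIM24-KO, TRIM33-KO and line 2 interactions. For the line 2 interaction, only the compared groups gave 10 and DESeq2 gave 12. Leaving out 1 library gave 0 to 5, 3 to 20 and 3 to 10 for these interactions. The TRIM24-KO count was 0 without line 1 without DOX replicate 1, line 1 with DOX replicate 2 or TRIM24-KO without DOX replicate 1, and 4 and 5 without replicate 1 or 2 of TRIM24-KO with DOX. The TRIM33-KO count was 9 and 8 without replicate 1 or 2 of line 1 without DOX, 8 without line 1 with DOX replicate 1, 11 without line 2 without DOX replicate 1, 5 and 7 without replicate 1 or 2 of TRIM33-KO without DOX, and 3 without TRIM33-KO with DOX replicate 1. The line 2 count was 3 without replicate 2 without DOX or replicate 1 with DOX of either line, and 10 without line 2 with DOX replicate 2. Leaving out 1 library gave 6 to 17 for TRIM33-KO without DOX, the lowest without its replicate 2. The cause of these shifts was not tested, apart from the smaller number of rows or samples that an alternative itself brings.

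Same-numbered libraries correlated in their deviations at 0.04 to 0.68 within a line, with 2 pairs each, and the labels do not say that a number pairs libraries, so the replicate block is an alternative only.

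Of 2259 alternative values for the named members, 111 lost and 36 gained the call, 33 changed sign where at least 1 of both values passed, and the other 2079 stayed on their side of the threshold, changes of sign among values that passed in neither fit included. Under scaling to repeats 20 values that passed on neither scale changed sign, and so did these 31, which passed on at least 1. In line 1 they were LTRIS2 -0.51, MLTR14 -0.21, MMERGLN-int -0.46, MuLV-int -0.18, MuRRS4-int -0.10, RLTR1B -0.0757, RLTR1B-int -0.56, RLTR41 -0.21, RLTR4_MM-int -0.45, RLTR4_Mm -0.39 and RMER5 -0.0335. In line 2 they were LTRIS2 -0.56, MLTR14 -0.22, MMERGLN-int -0.53, MuLV-int -0.24, RLTR1B-int -0.86, RLTR4_MM-int -0.17 and RLTR4_Mm -0.15. In TRIM24-KO they were LTRIS2 -0.37, MLTR14 -0.23, MMERGLN-int -0.47, MuLV-int -0.0785, RLTR1B -0.19 and RLTR4_MM-int -0.30. In TRIM33-KO they were LTRIS2 -0.81, MLTR14 -0.13, MMERGLN-int -0.60, MuLV-int -0.52, RLTR1B-int -1.02, RLTR4_MM-int -0.56 and RLTR4_Mm -0.49. LTRIS4B in TRIM24-KO was -0.00951 without both libraries rich in CT010467.1, and leaving out 1 library gave -0.00801 to 6.67, the lowest without TRIM24-KO with DOX replicate 2.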
